A study of Rattus norvegicus with 6 samples.

Results

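Voltage-gated sodium and calcium channel genes were followed in cultured rat motor neurons after a short exposure to camptothecin. They were taken by gene symbol: Scn with a number and the letter a or b, or a symbol starting with Cacna, Cacnb or Cacng. Of the 14507 genes that the array measured with a row carrying 1 symbol, 35 were channel genes, 11 for sodium and 24 for calcium channels. Only Scn3a had more than 1 such row, and the row with the highest mean level was used. Scn9a shared its row with Scn3a and is therefore not among the 35.

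The tested cultures received 1 microM camptothecin, an inhibitor that holds topoisomerase 1 in its DNA-bound state, for 2 h, and the controls received an equal volume of DMSO, its solvent. Both came from rat embryos of embryonic day 13.5 and were kept for 2 days in vitro, with 3 arrays for each treatment. The arrays of a treatment are labelled as biological replicates, but whether they came from separate cultures is not stated, so the p-values rest on a spread between samples that may be technical. No genotype, transgene or strain is given for either treatment.

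Voltage-gated sodium channels carry the rising phase of the action potential, and voltage-gated calcium channels turn depolarisation into calcium entry at synapses, dendrites and cell bodies. In both families a large pore-forming alpha subunit opens with voltage, and smaller auxiliary subunits set how many channels reach the membrane and how they gate. In motor neurons these channels shape repetitive firing and transmitter release at the neuromuscular junction. Several gamma subunit genes, named for their likeness to a calcium channel subunit of muscle, instead encode partners of AMPA-type glutamate receptors.

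Array medians on the log2 scale lay at 6.31 to 6.33 with camptothecin and at 6.22 to 6.28 with DMSO, and thus did not overlap. The median log2 change over all 29214 rows of the table was 0.07. Of 12 measured motor neuron markers 6 were dim, meaning below the median level of all rows (6.28). Among them were the acetylcholine transporter Slc18a3 and the choline transporter Slc5a7. The others, namely Nefm, Nefl, Ret, Nefh, Foxp1 and Lhx3, were not dim. Of the 12 markers 3 rose (25%, against 11.3% of all genes), namely Nefh (0.59), Nefm (0.42) and Prph (0.31). Only Foxp1 (-0.34) fell (8.33%, against 9.35% of all genes). The other 8 were not called, namely Slc5a7 (-0.34), Isl1 (-0.27), Lhx4 (-0.20), Ret (-0.17), Slc18a3 (-0.11), Lhx3 (0.02), Isl2 (0.09) and Nefl (0.14). The median change of the motor neuron list was -0.05. None of 10 interneuron and sensory neuron markers was dim, and per-array means of that list were 7.91 to 8.04 with camptothecin and 8.27 to 8.35 with DMSO. The 5 of them that fell were the glycine transporter Slc6a5, the GABA-synthesising enzymes Gad2 and Gad1, the glutamate transporter Slc17a6 and the transcription factor Pax2, where 9.35% of all genes fell. The other 5 had changes above 0 without a call, namely Lhx5 (0.26), Slc32a1 (0.23), Avil (0.17), Lhx1 (0.10) and Pou4f1 (0.08), and the median change of the list was -0.09. In bulk cultures fewer cells of a type and less RNA per cell cannot be told apart, and the part of these markers in the channel results was not tested. The label motor neurons is kept here as the name of the cultures.

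Most channel genes changed little, and 1 gene pair of the same family carried the largest changes in opposite directions. Among the 35 genes, 6 rose (17.1%, against 11.3% of all genes) and 2 fell (5.71%, against 9.35% of all genes). Cacnb3, a calcium channel beta subunit, rose 1.52-fold, and Cacnb2, another beta subunit, fell by 0.90 on the log2 scale. The other rises were Scn3b, Cacna2d2, Scn1a, Scn2a and Cacna1a, by 1.19-fold to 1.31-fold, and the other fall was Cacng3. A call means an adjusted p under 0.05 in limma's test over all rows, and changes are camptothecin minus DMSO on the log2 scale with limma's standard error (SE). With 1 array left out, 3 to 5 channel genes were higher, with 3 without DMSO replicate 2 or 3. In such fits 1 to 3 were lower, with 1 where DMSO replicate 1 or 2 or camptothecin replicate 3 was left out. Shares of all genes in these fits are not given here, so the counts do not show a loss particular to the channel genes. None of the 35 genes changed by 2-fold or more, a size that 1.35% of all genes reached with a call. The median change was 0.01 for the channel genes and 0.06 for all genes, and 65.7% of the channel genes and 61.5% of all genes changed by less than 0.2 in size.

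The treatments did not overlap for 17 of the 35 genes, with all camptothecin arrays higher for 9 (27.1% of all genes) and lower for 8 (15.5% of all genes). Of the 9 dim channel genes none was called (limma, 0 also at an unadjusted p under 0.05). The called share of all dim genes is not given here, so this is not read as a trait of the channel genes. Among the 26 brighter channel genes 23.1% rose and 7.69% fell. Brighter genes as a whole rose in 17.1% and fell in 14.8%. The half-width of the 95% interval of a change ran from 0.15 to 0.48 with a median of 0.19, which is the precision that 3 arrays against 3 gave.

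**Figure D1:**
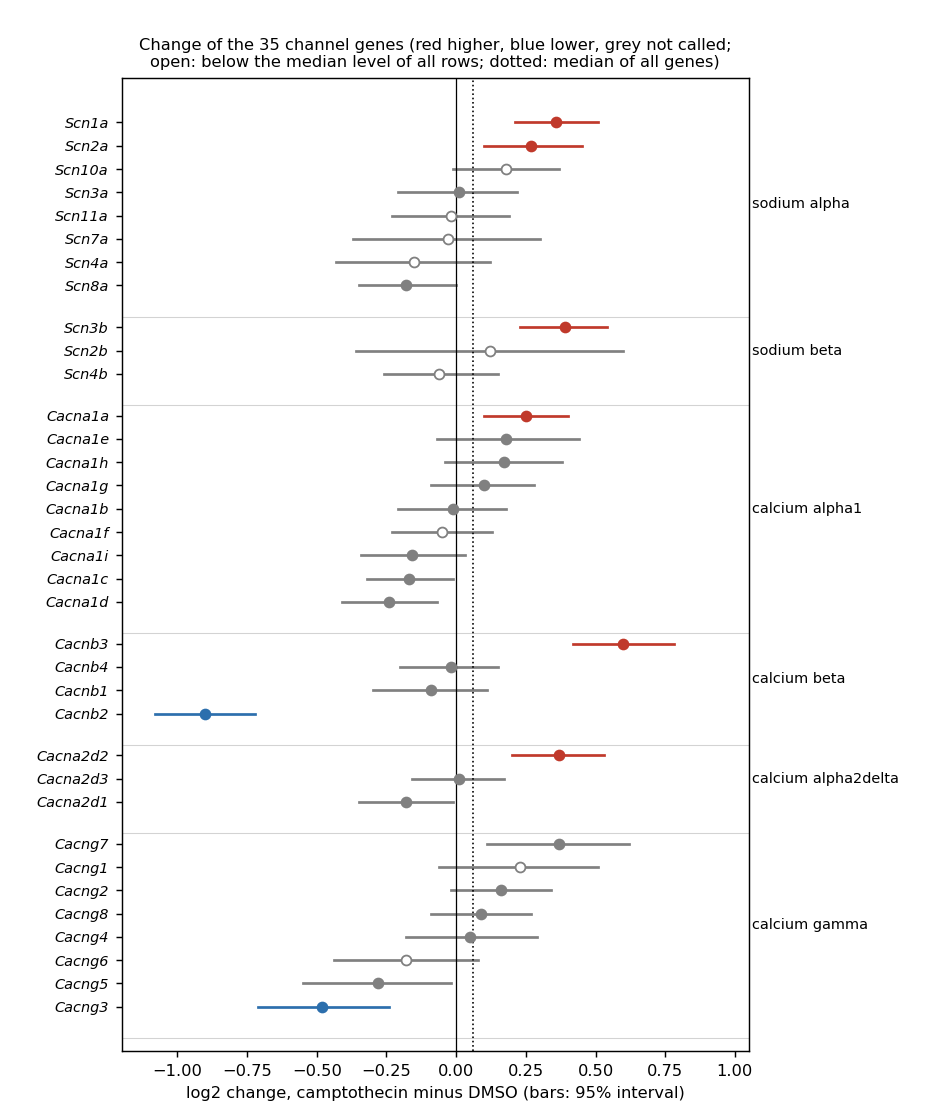
Log2 change of each of the 35 channel genes, camptothecin minus DMSO, grouped by subunit class, with limma's 95% interval (n = 3 arrays per treatment). Points are red where called higher, blue where called lower and grey where not called, open points are dim genes, and the dotted line is the median of all genes (0.06). Cacnb3 and Cacnb2 lie farthest from 0, on opposite sides.

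The sodium channel alpha subunits form the pore. Of 8 measured, 2 rose (25%, against 11.3% of all genes) and none fell (9.35% of all genes; limma, with 1 lower at an unadjusted p under 0.05). Scn1a, a pore gene of inhibitory and motor neurons, had 6.99, 7.04 and 7.04 on the camptothecin arrays, against 6.71, 6.61 and 6.67 on the DMSO arrays. Every camptothecin value lay above every DMSO value, and the gene rose by 0.36 (SE 0.06, adjusted p = 0.0103). Scn2a, a pore gene of unmyelinated axons and of young neurons, had 9.39, 9.36 and 9.38 with camptothecin, against 9.18, 9.0 and 9.14 with DMSO. Its rise of 0.27 (SE 0.07, adjusted p = 0.043) did not overlap either, but the call was lost whenever 1 array was left out (adjusted p from 0.0682 to 0.137).

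Scn8a is the main pore gene of the mature axon initial segment and of nodes of Ranvier. It had 7.08, 6.94 and 7.11 with camptothecin, against 7.23, 7.26 and 7.17 with DMSO, all lower but not called (-0.18, SE 0.07, adjusted p = 0.148). Scn3a, a pore gene that is prominent in embryonic neurons, had 9.69, 9.80 and 9.49 with camptothecin, against 9.70, 9.64 and 9.62 with DMSO. These values overlapped, and the change was 0.01 with a 95% interval of -0.21 to 0.22. The second Scn3a row gave -0.02 (SE 0.07), and the row shared by Scn3a and Scn9a gave -0.11 (SE 0.08, adjusted p = 0.436).

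The other 4 alpha subunit genes were dim in both treatments. Scn4a, the skeletal muscle pore gene, averaged 5.54 ± 0.10 with camptothecin and 5.70 ± 0.21 with DMSO (SD, n = 3 each). Scn10a and Scn11a, pore genes of nociceptive sensory neurons, changed by 0.18 (SE 0.08, adjusted p = 0.18) and -0.02 (SE 0.09). Scn7a, which encodes a sodium-sensing relative of these channels, changed by -0.03 with the wide interval of -0.37 to 0.30. None of the 4 passed the test (limma).

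In the GRCr8 annotation Scn3a and Scn2a are adjacent, 4 protein-coding genes lie between Scn2a and Scn1a, and Scn9a lies between Scn1a and Scn7a. Along this cluster the changes were 0.01, 0.27, 0.36 and -0.03 for Scn3a, Scn2a, Scn1a and Scn7a. The 2 called genes are thus flanked by 2 that were not. Close paralogs can share probe sequence, and cross-hybridisation was not tested.

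Sodium channel beta subunits are single-pass proteins that modulate gating and adhesion. Scn3b had 9.64, 9.67 and 9.60 with camptothecin, against 9.32, 9.22 and 9.22 with DMSO. The groups were well apart, and Scn3b rose 1.31-fold (log2 change 0.39, SE 0.07, adjusted p = 0.00893). Scn2b and Scn4b, the beta subunits that bind alpha subunits through a disulfide bond, were both dim and not called. For Scn2b the second camptothecin array stood at 5.64 while the others had 4.84 and 4.90, against 4.97, 5.0 and 5.05 with DMSO, and its SE of 0.20 was the largest among the 35 genes. Scn4b changed by -0.06 (SE 0.09). In GRCr8 no protein-coding gene lies between Scn2b and Scn4b.

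**Figure D2:**
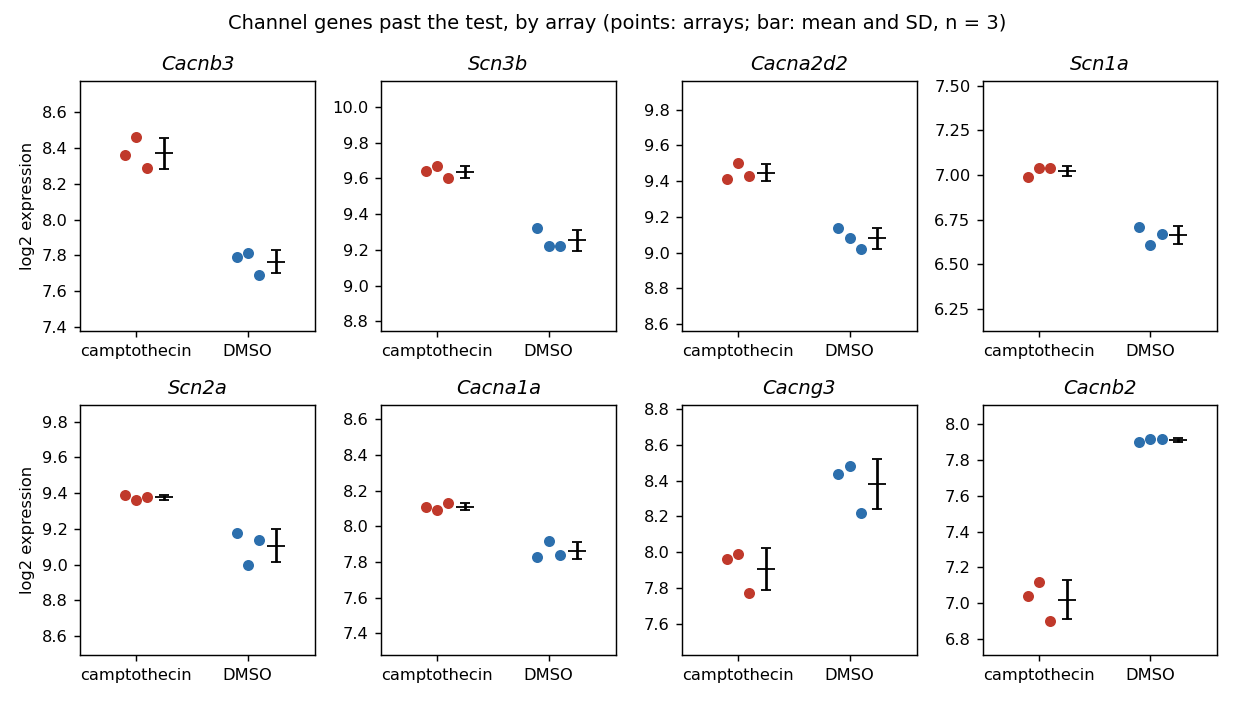
Log2 expression of the 8 called channel genes on each array, camptothecin (red, left) and DMSO (blue, right), in order of their change. Each point is an array, black bars are mean and SD (n = 3), and every panel spans the same log2 range. In each panel the treatments are fully apart, with camptothecin above DMSO in 6 genes and below it in Cacng3 and Cacnb2.

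Calcium channel alpha1 subunits form the calcium pore and define the current types. Of 9 measured, 1 rose (11.1%, near the 11.3% of all genes) and none fell (9.35% of all genes; limma, with 2 lower at an unadjusted p under 0.05). Cacna1a, the P/Q-type pore that drives transmitter release at the mature neuromuscular junction, had 8.11, 8.09 and 8.13 with camptothecin, against 7.83, 7.92 and 7.84 with DMSO. The rise of 0.25 (SE 0.06, adjusted p = 0.0377) was the smallest called change among the channel genes. Like that of Scn2a, its call was lost with any 1 array left out (adjusted p from 0.0626 to 0.118). Cacna1b, the N-type pore that also serves release, had 7.55, 7.43 and 7.32 with camptothecin, against 7.47, 7.5 and 7.37 with DMSO. The groups overlapped, and the change of -0.01 had a 95% interval of -0.21 to 0.18.

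Both L-type pore genes of neurons lay lower on every camptothecin array without passing the test. Cacna1d had 7.81, 7.67 and 7.65 with camptothecin, against 7.91, 7.95 and 7.99 with DMSO, a change of -0.24 (SE 0.07, adjusted p = 0.0597). Cacna1c had 7.03, 6.92 and 7.0 with camptothecin, against 7.17, 7.13 and 7.15 with DMSO, a change of -0.17 (SE 0.06, adjusted p = 0.127). Cacna1d lay near the threshold and was called in 7 of 17 alternative settings, among them those without dim rows (adjusted p = 0.0175) and without camptothecin replicate 1 (0.0491). With any other single array left out it was not called (adjusted p from 0.118 to 0.162). Cacna1f, the L-type pore gene known from retina, was dim and changed by -0.05 (SE 0.08).

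The R-type and T-type pores were not called either. Cacna1e, the R-type pore, had 8.25, 7.93 and 8.33 with camptothecin, against 7.98, 8.01 and 7.98 with DMSO. The second camptothecin array was lower than all DMSO arrays and the other 2 were higher (0.18, SE 0.11, adjusted p = 0.307). Without camptothecin replicate 2 the change was 0.30 with an adjusted p of 0.0402, its 1 call among 17 alternative settings. T-type channels open near the resting potential. Their gene Cacna1h had 8.40, 8.38 and 8.33 with camptothecin, against 8.37, 8.14 and 8.10 with DMSO (0.17, SE 0.09). Cacna1g had 6.90, 6.84 and 6.81 with camptothecin, against 6.63, 6.80 and 6.84 with DMSO (0.10, SE 0.08). Cacna1i had 6.27, 6.34 and 6.14 with camptothecin, against 6.36, 6.48 and 6.39 with DMSO (-0.16, SE 0.08). Only the last of the 3 T-type genes had groups that did not overlap.

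Calcium channel beta subunits are intracellular proteins that bind the alpha1 subunit, bring it to the membrane and set its inactivation. Of the 4 genes Cacnb3 rose and Cacnb2 fell (25% each way, against 11.3% and 9.35% of all genes), and Cacnb1 (-0.09, SE 0.09) and Cacnb4 (-0.02, SE 0.07) were not called. Cacnb3 had 8.36, 8.46 and 8.29 with camptothecin, against 7.79, 7.81 and 7.69 with DMSO. The lowest camptothecin value was above the highest DMSO value, and the change was 0.60 (SE 0.08, adjusted p = 0.00282). Cacnb2 had 7.04, 7.12 and 6.90 with camptothecin, against 7.90, 7.92 and 7.92 with DMSO. It was lower on every camptothecin array, with a change of -0.90 (SE 0.08, adjusted p = 0.000526), which is a change of -46.3% on the linear scale.

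The unequal change of these 2 genes does not depend on how arrays are centred, since it can be read within each array. The log2 value of Cacnb3 minus that of Cacnb2 was 1.32, 1.34 and 1.39 on the camptothecin arrays, against -0.11, -0.11 and -0.23 on the DMSO arrays. It averaged 1.35 ± 0.04 with camptothecin and -0.15 ± 0.07 with DMSO (SD, n = 3 each), so the pair moved apart by 1.5. The exact permutation test gave p = 0.1, two-sided, the smallest that 3 arrays against 3 allow. The pair was chosen after its values were seen, and a difference between probe sets on 1 array measures unequal change, not relative abundance.

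The promoters of Cacnb3 and Cacnb2 are shown because these genes carried the largest changes of the family, in opposite directions. Each window holds 250 bases before and 50 after the annotated gene start in RefSeq, build GRCr8, read 5′ to 3′ on the plus strand, at chr7:131666301-131666600 for Cacnb3 and chr17:82472965-82473264 for Cacnb2. Capitals mark the letters GGGCGG, the core of the GC box, on either strand, and overlapping matches are counted singly.
Cacnb3: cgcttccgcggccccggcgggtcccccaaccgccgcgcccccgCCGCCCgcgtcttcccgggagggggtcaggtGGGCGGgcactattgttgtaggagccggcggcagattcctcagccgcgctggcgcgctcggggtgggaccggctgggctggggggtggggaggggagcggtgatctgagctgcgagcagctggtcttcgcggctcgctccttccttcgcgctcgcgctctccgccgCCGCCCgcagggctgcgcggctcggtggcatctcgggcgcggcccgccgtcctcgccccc
Cacnb2: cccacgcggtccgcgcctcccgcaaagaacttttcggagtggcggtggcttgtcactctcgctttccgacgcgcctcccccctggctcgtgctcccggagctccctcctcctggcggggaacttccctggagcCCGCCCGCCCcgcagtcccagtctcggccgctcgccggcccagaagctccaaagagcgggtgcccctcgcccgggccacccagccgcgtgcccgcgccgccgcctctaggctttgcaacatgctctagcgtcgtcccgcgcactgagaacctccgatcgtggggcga
Both windows are rich in G and C, at 77.7% for Cacnb3 and 71.7% for Cacnb2. GGGCGG occurred 3 times in the Cacnb3 window and 2 times in the Cacnb2 window, while 34.7% of the 27456 promoter windows in the table hold it at least once. It is not particular to this pair, since 13 of the 25 channel genes with a window hold it (52.0%). Cacna1d and Scn8a, neither of them called, have 10 and 7 occurrences. Other motifs were searched on both strands and found in neither window. They were the cyclic AMP response element TGACGTCA, which 1.89% of all windows hold, the AP-1 site TGANTCA (7.39%), the E-box CACGTG (6.63%) and the TATA box letters TATAAA (14.3%). The array signal comes from probes along the transcript, so these data do not say which start site was used. The table held promoters for 25 of the 35 channel genes (71.4%). Their median content of G and C was 63.0%, against 52.3% for all windows. This difference was not tested, and it leaves out the channel genes without a window.

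Alpha2delta subunits are extracellular, glycosylated partners that raise the number of calcium channels at the membrane and at release sites, and Cacna2d1 and Cacna2d2 encode the targets of gabapentin. Of 3 measured genes 1 rose (33.3%, against 11.3% of all genes). Cacna2d2 had 9.41, 9.5 and 9.43 with camptothecin, against 9.14, 9.08 and 9.02 with DMSO. The groups were apart, and the gene rose 1.29-fold (0.37, SE 0.07, adjusted p = 0.0126). The call was lost without DMSO replicate 2 (adjusted p = 0.0506) and without DMSO replicate 3 (adjusted p = 0.0505), while the changes there were 0.37 and 0.33. Cacna2d1 was lower on all camptothecin arrays but not called (-0.18, SE 0.07, adjusted p = 0.138), and Cacna2d3 changed by 0.01 with a 95% interval of -0.16 to 0.17.

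Of the 8 gamma genes 1 fell (12.5%, near the 9.35% of all genes) and none rose (11.3% of all genes; limma, with 1 higher at an unadjusted p under 0.05). Cacng3, which encodes an AMPA receptor partner that brings receptors to synapses, had 7.96, 7.99 and 7.77 with camptothecin, against 8.44, 8.48 and 8.22 with DMSO. Replicate 3 was the lowest array in both treatments, and the groups did not overlap (-0.48, SE 0.10, adjusted p = 0.0183). The call was lost without camptothecin replicate 3 (adjusted p = 0.0565), without DMSO replicate 1 (0.0669) and without DMSO replicate 2 (0.0679).

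Cacng7, another AMPA receptor partner, lay just outside the threshold. It had 9.95, 10.34 and 10.15 with camptothecin, against 9.73, 9.86 and 9.75 with DMSO, a change of 0.37 (SE 0.11, adjusted p = 0.0574). It was called in 6 of the 17 alternative settings, among them those without dim rows (adjusted p = 0.0183) and without camptothecin replicate 1 (0.026). With any other single array left out Cacng7 was not called (adjusted p from 0.101 to 0.154). Its change was 0.27 without camptothecin replicate 2. The groups did not overlap. Cacng2, the gene mutated in the stargazer mouse, changed by 0.16 (SE 0.08), Cacng4 by 0.05 and Cacng8 by 0.09, and Cacng5 by -0.28 (SE 0.11, adjusted p = 0.137). Cacng1, the muscle calcium channel subunit, and Cacng6 were dim and changed by 0.23 (SE 0.12) and -0.18 (SE 0.11). Of 9 skeletal muscle markers 7 were dim, with per-array means of 5.83 to 5.88 with camptothecin and 5.77 to 5.86 with DMSO. Of these markers 1 rose, Acta1 (11.1%, near the 11.3% of all genes).

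Of the gamma genes 6 lie in 2 tight groups in GRCr8, with no protein-coding gene between neighbours. The first group is Cacng6, Cacng8 and Cacng7, and the second is Cacng1, Cacng4 and Cacng5. Cacng3, the called gamma gene, and Cacng2 lie outside both groups. Changes along the first group were -0.18, 0.09 and 0.37, and along the second 0.23, 0.05 and -0.28. None of these 6 genes was called (limma, with 2, Cacng7 and Cacng5, at an unadjusted p under 0.05), and differences between such neighbours were not tested.

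Many of the channel genes are long, and most of the long ones were not called. Genomic spans in GRCr8 ran from 12.1 kb (Scn2b) to 814 kb (Cacna2d3) with a median of 103 kb, against 18.0 kb for all genes. Of the 18 channel genes spanning 100 kb or more 4 rose (22.2%) and 1 fell (5.56%). Among all 1631 genes of that span 1.84% rose and 34.8% fell. The median change was 0.00 for the long channel genes and -0.14 for all long genes. The 4 long risers were Scn1a, Scn2a, Cacna1a and Cacna2d2, and the long gene that fell was Cacnb2, with a span of 345 kb. Among the 17 shorter channel genes 2 rose and 1 fell, where 12.5% and 6.13% of all genes under 100 kb did. With 1 array left out, 1 to 3 of the 18 long channel genes were higher and 1 to 2 lower, with 1 higher without DMSO replicate 2 or 3, 2 higher without camptothecin replicate 1 or 3 or DMSO replicate 1, and 2 lower without camptothecin replicate 1. In those fits 0.307% to 1.1% of all long genes were higher and 26.6% to 31.4% lower. These counts are a description, with no test of the channel genes as a set.

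Spearman's rho of span and change was -0.18 over the 35 channel genes and -0.31 over the 14475 genes with a span. These are descriptions across genes, which share the same 6 arrays. The 5 channel genes of 300 kb or more, namely Cacnb2, Cacna2d1, Cacna1e, Cacna1c and Cacna2d3, had a median change of -0.17, and all 374 genes of that span had -0.19. The 13 channel genes between 100 and 300 kb had a median of 0.01, and all 1257 genes of that span had -0.12.

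**Figure D3:**
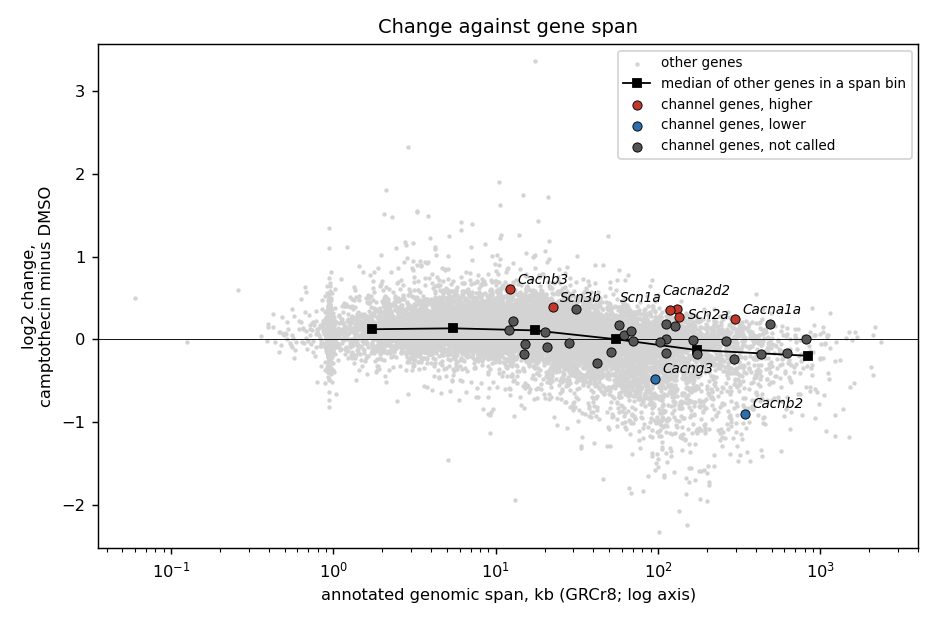
Log2 change, camptothecin minus DMSO, against annotated genomic span on a log axis for the channel genes (large points) and all other genes with a span (light grey). Squares are medians of the other genes within span bins. The squares fall below 0 at long spans, where 4 of the 18 long channel genes were called higher and 1, Cacnb2, lower.

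The sizes of all these changes depended on the scale on which arrays are compared, and so did the calls of the small rises, while Cacnb3 and Cacnb2 kept direction and call. Centring each array on 69 ribosomal protein genes shifted the median change of all rows by -0.25. On that scale 1 channel gene was higher (Cacnb3, 0.36, adjusted p = 0.00873) and 14 were lower, against 2.5% higher and 29.5% lower among all genes. The remaining rises shrank to 0.14 for Scn3b, 0.12 for Cacna2d2, 0.11 for Scn1a, 0.03 for Scn2a and 0.00 for Cacna1a, none of them called. Cacnb2 (-1.14, adjusted p = 9.76e-05) and Cacng3 (-0.72, adjusted p = 0.00192) were lower by more. Of the 18 long channel genes 8 were lower and 0 higher on that scale (44.4%), where 66.2% of all long genes were lower.

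With each array centred on its own median, 4 channel genes were higher and 3 lower, against 6.29% and 11.1% of all genes. The calls of Scn2a (0.21, adjusted p = 0.0951) and Cacna1a (0.18, adjusted p = 0.138) were lost, and Cacna1d was called lower (-0.31, adjusted p = 0.033). Over 17 alternative settings Cacnb3 and Cacnb2 were called in all 17, Scn3b in 15, Scn1a in 14, Cacna2d2 and Cacng3 in 12, Scn2a in 6 and Cacna1a in 5. The direction of these 8 genes turned in none of the 17.

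**Figure D4:**
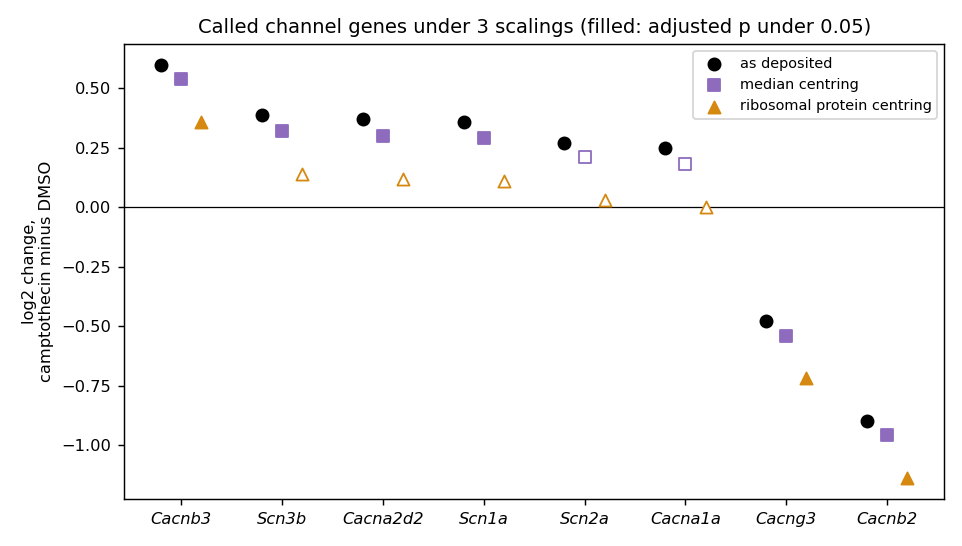
Log2 change, camptothecin minus DMSO, of the 8 called channel genes as deposited (circles), with each array centred on its median (squares) and on the ribosomal protein genes (triangles). Filled symbols have an adjusted p under 0.05. Cacnb3, Cacng3 and Cacnb2 stay filled on all 3 scales. All rises, Cacnb3 among them, move toward 0 with the centrings.

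Genes that work with these channels were also examined, from 4 lists of known partners. Of 14 measured sodium channel partners 1 rose and 1 fell (7.14% each way), no more than the 11.3% and 9.35% of all genes. Fgf14, a fibroblast growth factor homologous factor that binds the tail of sodium channel alpha subunits, had 8.95, 8.96 and 8.78 with camptothecin, against 9.39, 9.32 and 9.35 with DMSO. It was lower on every camptothecin array (-0.46, SE 0.08, adjusted p = 0.008). Nrcam, an adhesion molecule of the axon initial segment and node, rose by 0.28 (SE 0.07, adjusted p = 0.0354). Ank3, the ankyrin that anchors sodium channels at the initial segment, changed by 0.06 (SE 0.08), and Fgf13 and Fgf12 by 0.16 and -0.13, none of them called. Those last 3 were named after their values were seen.

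Among 24 measured calcium channel partners, most of them proteins of the release site, 3 rose (12.5%, near the 11.3% of all genes) and 1 fell (4.17%, against 9.35%). Rims2, a scaffold that ties calcium channels to the release machinery, fell, with a log2 change of -0.52 (SE 0.07, adjusted p = 0.00468). Stx1a, a SNARE protein of the plasma membrane that binds calcium channels, rose by 0.39 (SE 0.10, adjusted p = 0.0426). Rem2, a small GTPase that binds beta subunits and inhibits calcium channels, had 7.72, 8.0 and 7.86 with camptothecin, against 7.52, 7.60 and 7.5 with DMSO (0.32, SE 0.09, adjusted p = 0.0474). The other rise was Calm3 (0.29), a calmodulin gene, named after its value was seen. Gem, a related GTPase also named after its value was seen, lay higher on all camptothecin arrays without passing (0.20, SE 0.06, adjusted p = 0.0689).

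Of 20 genes of calcium stores, pumps and exchangers 3 rose (15%) and 2 fell (10%), close to the 11.3% and 9.35% of all genes. Stim2, a calcium sensor of the endoplasmic reticulum, had 7.98, 8.27 and 8.03 with camptothecin, against 9.06, 9.05 and 9.0 with DMSO (-0.94, SE 0.09, adjusted p = 0.000823). Orai2, a pore of the store-operated channel that STIM proteins open, rose by 0.37 (SE 0.08, adjusted p = 0.0214). The plasma membrane calcium pump gene Atp2b1 fell as well (-0.31, SE 0.06, adjusted p = 0.0142). Orai1 (0.25) and the sodium-calcium exchanger Slc8a2 (0.29) were the other rises, named after their values were seen.

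Among 20 calcium-regulated kinases, phosphatase subunits and transcription factors, 4 rose and 4 fell (20% each way, against 11.3% and 9.35% of all genes). Mef2a, an activity-regulated transcription factor, had 7.98, 8.06 and 7.97 with camptothecin, against 9.0, 8.97 and 9.0 with DMSO (-0.99, SE 0.06, adjusted p = 0.000153). Creb1, a transcription factor phosphorylated after calcium entry, changed by -0.91 (SE 0.08), and the kinase gene Camk1d by -0.44 (SE 0.11). The fourth fall was Ppp3cc (-0.27), a calcineurin subunit. The 4 rises were Camkk2 (0.40, SE 0.07), a kinase that activates other calmodulin kinases, and 3 of the genes for calmodulin-dependent kinase II, Camk2a (0.37), Camk2b (0.34) and Camk2g (0.34). Camk2d, the other gene of that kinase, changed by 0.07 (SE 0.07, adjusted p = 0.522). All genes of this list after Camk1d were named after their values were seen. Over the 4 lists the median changes were 0.05 for sodium channel partners, 0.07 for calcium channel partners, 0.00 for stores and pumps and 0.03 for the calcium-regulated genes, beside 0.06 for all genes.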

How the data were processed

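Expression was measured on whole-transcript arrays (Affymetrix Rat Gene 1.0 ST) in 3 camptothecin and 3 DMSO samples. The authors deposited log2 values per transcript cluster, and RMA and oligo are named per the submitters' processing notes, with no version, probe annotation or genome build stated there. The table held 29214 rows, of which 15310 had 1 gene symbol in the platform annotation, 323 several and 13581 none. Symbols and spans came through gene identifiers from RefSeq on GRCr8.

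Values were tested as deposited with limma 3.58.1 in R 4.3.3 (lmFit, eBayes), with two-sided p-values adjusted over all rows by Benjamini-Hochberg and a threshold of 0.05. Every called channel gene was named, with per-array values for called genes and the main neuronal pore genes, and up to 3 called genes of each partner list by the size of the change, while further ones are marked in the text as named after their values were seen. Channel genes, lists and alternatives were chosen with earlier results of these data known. The fit was tested on simulated data of 29214 rows with 200 changed, and it found 0 of those changed by 0.5 on the log2 scale, 86.5% of those changed by 1 and 95% of those changed by 2. The real fit called more rows, which makes its threshold less strict, and its smallest called change over all rows was 0.22. The simulated shares therefore do not measure how many real changes of these sizes were found. The alternatives were a further quantile normalization, centring on array medians or ribosomal protein genes, leaving out dim rows, a replicate block, trend and robust, array weights, each array left out, 1-symbol rows alone, averaged rows of a gene, a threshold of 0.01 and treat at 1.2-fold. Among marker lists not described with the results, progenitors and astroglia gave 1 rise and 1 fall of 10 (10% each way). Only 1 of those 10 markers was dim, and Fabp7 averaged 12.41 with either treatment, so RNA of such cells may be present in the cultures. Oligodendrocytes and Schwann cells gave 1 fall of 4 (25%), and fibroblasts 1 fall of 7 (14.3%). Endothelium, blood and microglia gave 0 of 8 (limma). Of the 12 motor neuron markers 3 rose (25%) and 1 fell (8.33%). Over all genes 11.3% rose and 9.35% fell. No scan date or other batch is given, and the number of arrays limits the precision.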

Additional observations from a re-analysis of the deposited data

How the results depend on the processing

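Cacnb3 and Cacnb2 kept direction and call in all 17 alternatives, with changes of 0.36 to 0.64 and -1.14 to -0.84. Their direction could turn only in settings that alter the change itself. Those are the further normalization, the centrings, array weights and the arrays left out. As deposited, 6 channel genes were higher and 2 lower. The count higher was 1 with ribosomal protein centring, 1 with limma's treat against a 1.2-fold change, 2 at a threshold of 0.01 and 3 to 5 with 1 array left out. The count lower was 14 with ribosomal protein centring, 4 without dim rows, 4 with trend and robust, 1 with treat, 1 at a threshold of 0.01 and 1 to 3 with 1 array left out. With ribosomal protein centring 2.5% of all genes were higher and 29.5% lower. Shares of all genes under the other settings of these counts, and under the replicate block, are not given here. The counts therefore do not show a loss or gain particular to the channel genes. The median change of the channel genes was -0.06 with median centring and -0.24 with ribosomal protein centring. Among genes not called as deposited, signs turned for Cacna1e (-0.07), Cacna1g (-0.15), Cacna1h (-0.08) and Scn3a (-0.24) with ribosomal protein centring. Scn3a, which lies near 0, also turned with median centring (-0.06), array weights (-0.06), the mean of its rows (-0.01) and single arrays left out (-0.06 to 0.09), and Cacna1b with single arrays left out (-0.07 to 0.04). Fewer rows are tested without dim rows, fewer arrays enter when 1 is left out, and a shift of all genes is built into the centrings. The threshold of 0.01 and treat set a stricter bar on the same changes. For the remaining settings the cause was not tested.

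With the replicate number as a block, 4 channel genes were higher and 2 lower, and Scn2a (adjusted p = 0.0888) and Cacna1a (adjusted p = 0.105) were not called. Arrays with the same number did not deviate together, with correlations of -0.0844, 0.0222 and 0.0845 for numbers 1, 2 and 3, so the numbers were not taken as pairs.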
